A study of Homo sapiens with 7 samples.

Results

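The genes described are 10 members of the BCL2 family, which decide whether a cell's mitochondria release the proteins that start apoptosis. They are BCL2, BCL2L1, MCL1, BAX, BAK1, BIK, BMF, BBC3, PMAIP1 and BCL2L11, chosen by name out of 17958 genes measured. Earlier results of these data were known when they were chosen. Each was represented by 1 transcript cluster, the set of probes that reads 1 gene on the array. The titles and the cell line field give SKOV3, an established line of human ovarian cancer, for every sample, while the source names number the line differently on each of them, which the labels do not explain. The cells were profiled on 7 Affymetrix whole-transcript arrays. Of these, 2 arrays held clones with a scramble control, 3 held clones labelled CtBP1 knockdown (called the CtBP1-labelled arrays) and 2 held CtBP2 knockdown clones. All 7 samples, controls included, carried a lentiviral construct and were grown under puromycin. The labels call each sample a clone and do not say that cultures were grown apart, so the spread behind each p-value is that of the arrays at hand and may be technical alone. Fewer cells and less RNA per cell cannot be told apart in such bulk samples.

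The family works as a balance of 3 kinds of protein. BCL2, BCL2L1 (BCL-XL) and MCL1 hold apoptosis back by binding their relatives at the outer mitochondrial membrane. BAX and BAK1 are the effectors that open pores in that membrane, and BIK, BMF, BBC3 (PUMA), PMAIP1 (NOXA) and BCL2L11 (BIM) are BH3-only proteins that set the effectors free or switch them on. CtBP1 and CtBP2 are transcriptional co-repressors that DNA-binding proteins bring to promoters, and BIK, BMF, BAX and PMAIP1 are reported among the genes that CtBP represses. The comparisons ask whether signals of these genes differ where CtBP1 or CtBP2 was targeted.

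CTBP2 was lower on both CtBP2 knockdown arrays, at log2 signals of 4.64 and 4.22, than on the scramble arrays, at 5.70 and 6.14, a difference of -1.49 ± 0.21 (limma, adjusted p = 0.18), which was -0.78 when the mean of the gene's clusters was used. CTBP1 did not separate the arrays labelled CtBP1 knockdown (5.11, 6.13 and 6.13) from scramble (5.69 and 6.37), so the label is used here only as a label. The submitters name a western blot, which reads protein, as their own check of the knockdowns. Scramble control 1 stood apart, with correlations over all genes of 0.926 to 0.941 against the other 6 arrays, which among themselves reached 0.971 to 0.993. Its signals were compressed (interquartile range 2.20 log2 units, elsewhere 2.85 to 3.15): its dim genes read higher and its bright genes lower than on the other arrays, with median differences of 0.21 in the dimmest quartile of genes and -0.65 in the brightest. Of 10 carcinoma markers, ERBB2, which is amplified in SKOV3, read 8.52 to 9.58 and KRT8 8.35 to 9.35, while WT1 stayed at 1.92 to 2.21. Several other markers of the list varied more than most members, in both directions. The difference from scramble was above 0 for 6 of the 10 markers with the CtBP1 label and for 7 with CtBP2 knockdown. KRT19 was among the lower ones, by -0.62 ± 0.36 and -0.17 ± 0.39. MUC16 ranged from 2.92 to 5.86 within the CtBP1-labelled arrays alone. KRT7 ranged from 5.65 on scramble control 1 to 9.64 on CtBP2 knockdown array 1, a difference of 2.54 ± 0.75 between CtBP2 knockdown and scramble (adjusted p = 0.394). EPCAM differed there by 1.27 ± 0.32 (adjusted p = 0.355). PAX8 differed by 1.35 ± 0.36 for the CtBP1 label against scramble (adjusted p = 0.734) and by -1.08 ± 0.36 between the knockdowns (adjusted p = 0.528). Summed over the 10 carcinoma markers the log2 signals were 58.5 to 63.0 on scramble arrays, 62.1 to 64.8 on CtBP1-labelled arrays and 64.0 to 67.5 on CtBP2 knockdown arrays. Among markers of other cell types, 5 leukocyte genes other than CD68 read 1.50 to 2.31 and 8 fibroblast and endothelial genes 1.22 to 3.32. CD68, which many cell types express, read 5.90 to 7.11. In the same order of groups, the 6 measured leukocyte genes summed to 15.7 to 17.1, 15.1 to 16.3 and 15.5 to 15.7. The sums over the fibroblast and endothelial genes were 15.3 to 17.5, 15.2 to 16.5 and 15.5 to 15.6. The part of these markers in the results was not tested.

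No member of the family passed the test in any of the 3 comparisons. The effector genes BAX and BAK1 had higher mean signals in both knockdown groups than in scramble, and BCL2 had lower ones. The 5 BH3-only genes differed from scramble by up to 0.46 log2 units on average. That largest value was -0.46, for PMAIP1 with the CtBP1 label, where BCL2 differed by -0.43. When the CtBP1-labelled arrays were set against scramble, limma called 0 of 10 members at a Benjamini-Hochberg adjusted p under 0.05, and 0 of 17958 genes (0.0%). An unadjusted p under 0.05 was reached by 3 members, BCL2, MCL1 and BAX, against 4.79% of all genes. These 3 were also the members whose groups did not overlap, against 14.4% of all genes: BCL2 and MCL1 were lower, as were 7.59% of all genes, and BAX was higher, as were 6.76%. For CtBP2 knockdown against scramble the call count was 0 members and 1 gene of the whole array (0.00557%). Unadjusted, 3 members were under 0.05, BCL2, BAX and BAK1, against 10.2% of all genes. The same 3 had groups that did not overlap, against 41.0% of all genes, with BCL2 lower (21.7% of all genes) and both effectors higher (19.3%). Between the knockdowns 0 members and 0 genes (0.0%) were called, and MCL1 alone was under 0.05 unadjusted, against 7.77% of all genes. MCL1, BAK1, BIK and PMAIP1 did not overlap there, against 32.0% of all genes, and all 4 were higher in the CtBP2 knockdown, against 15.8% of all genes, while 0 members were lower, against 16.2%. With few arrays a group, the non-overlap counts of 3 and 4 members in the 2 comparisons with the CtBP2 knockdown are near or below that background. The median member differed from scramble by 0.01 log2 units on the CtBP1-labelled arrays and by 0.14 on the CtBP2 knockdown arrays, where the medians over all genes were 0.00 and -0.02. Both comparisons use the same scramble arrays, so their values are not independent. The shares given are for pairs of groups. Where arrays of all groups are ranked together below, the share of all genes with the same pattern was not counted.

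**Figure D1:**
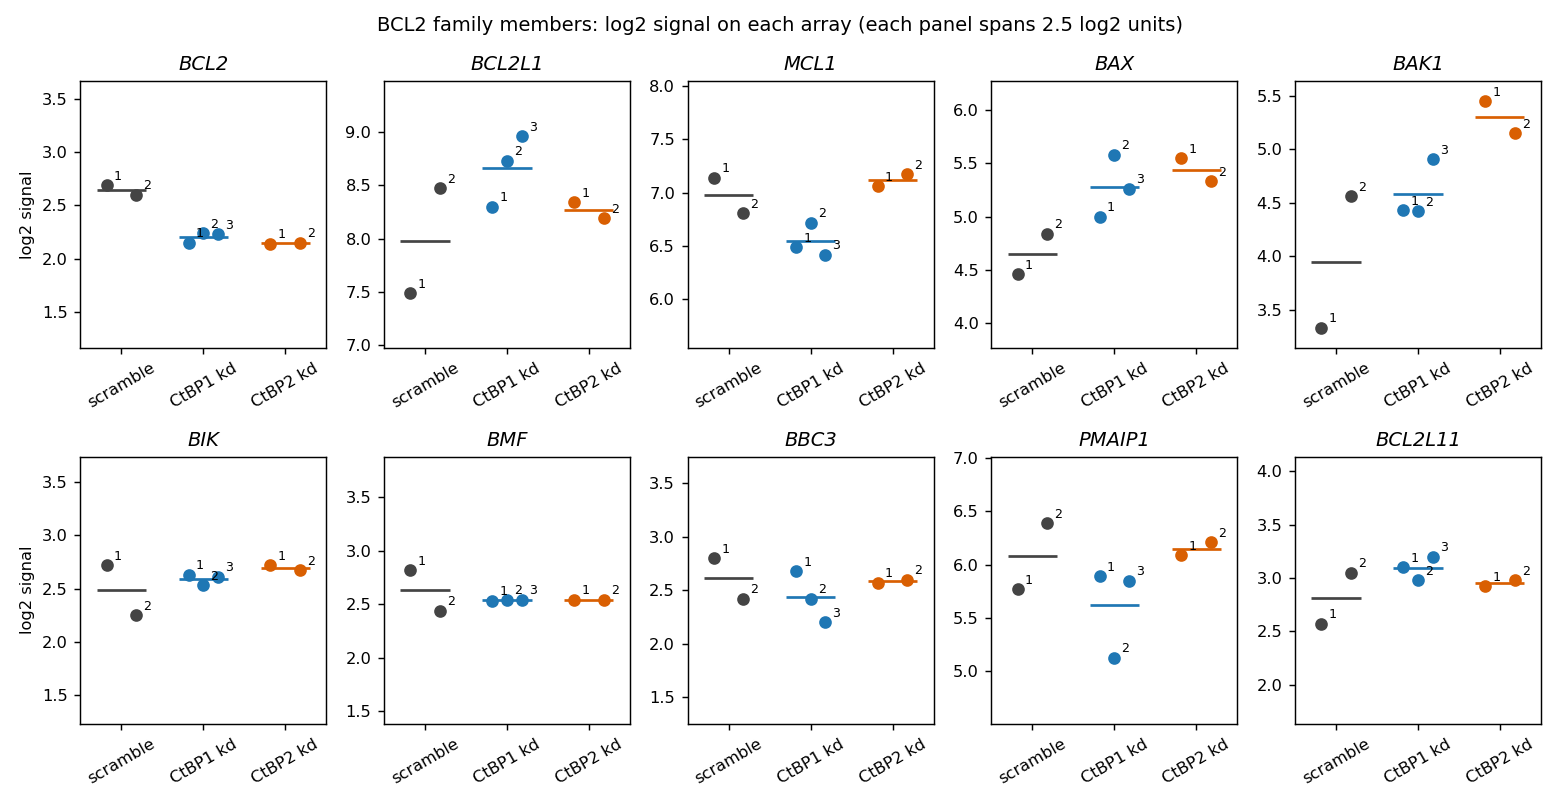
Log2 signal (vertical axis) of each of the 10 members on every array, by group, with the group mean as a line and the array number beside each point; every panel covers the same length of the log2 scale. BCL2 is lower and BAX higher on all 5 knockdown arrays than on both scramble arrays, a pattern whose share over all genes was not counted. The scramble arrays lie furthest apart for BAK1.

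Among the genes that hold apoptosis back, BCL2, the founding member of the family, read 2.69 and 2.60 on the scramble arrays. It read 2.15, 2.24 and 2.23 on the CtBP1-labelled arrays, and 2.14 and 2.15 on the CtBP2 knockdown arrays. All 5 knockdown arrays lay below both controls, and the knockdown groups overlapped each other. How many of all genes lay so was not counted. Against scramble the CtBP1 label gave a log2 difference of -0.43 ± 0.10 (standard error from limma, 3 arrays against 2), a 1.35-fold lower signal, with an adjusted p of 0.734. For CtBP2 knockdown it was -0.49 ± 0.11 (2 against 2), or 1.41-fold lower, with an adjusted p of 0.322. Of the 10 members BCL2 depended least on the control: its differences were -0.39 and -0.45 without scramble control 1, and -0.48 (adjusted p = 0.0393) and -0.54 (adjusted p = 0.0306) without scramble control 2. Under all alternatives its adjusted p ran from 0.0393 to 1.00 for the CtBP1 label and from 0.0306 to 0.93 for CtBP2. Between the knockdowns the difference was -0.06 ± 0.10 (95% interval -0.31 to 0.20), and 0.01 when the arrays were quantile normalized again. That renewed normalization also reduced the BCL2 differences from scramble, to -0.33 for the CtBP1 label and -0.32 for CtBP2 knockdown. The BCL2 signal was below 3.25, the median level of all genes, on every array.

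BCL2L1, which encodes the guardian BCL-XL, read 7.49 and 8.47 on the scramble arrays, 8.30, 8.73 and 8.96 on the CtBP1-labelled arrays, and 8.34 and 8.19 on the CtBP2 knockdown arrays. Scramble control 1 was the lowest of all 7 arrays, and scramble control 2 lay within the range of the CtBP1 label and above both CtBP2 knockdown arrays. The differences from scramble were 0.68 ± 0.33 (95% interval -0.13 to 1.49, adjusted p = 0.734) and 0.28 ± 0.36 (-0.60 to 1.17, adjusted p = 0.733). Without scramble control 1 they were 0.19 and -0.21, and without scramble control 2 they were 1.17 (adjusted p = 0.0463) and 0.78. Between the knockdowns BCL2L1 differed by -0.40 ± 0.33 (interval -1.21 to 0.41). The order of the group means was CtBP1 label, CtBP2 knockdown, scramble, and none of the neighbours differed beyond their spread.

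MCL1, a short-lived guardian whose protein turns over quickly, had the smallest unadjusted p of the members between the knockdowns (0.0111). It read 7.14 and 6.81 on scramble, 6.49, 6.72 and 6.42 on the CtBP1-labelled arrays, and 7.06 and 7.17 on CtBP2 knockdown. The CtBP1-labelled arrays were below all 4 others. Between the knockdowns the difference (CtBP2 minus CtBP1) was 0.57 ± 0.16, a 1.49-fold higher signal in the CtBP2 knockdown, with a 95% interval of 0.19 to 0.96 and an adjusted p of 0.453. It kept that sign under every alternative, from 0.47 to 0.66, with adjusted p from 0.0598 to 1.00. Against scramble the CtBP1 label differed by -0.43 ± 0.16 (adjusted p = 0.734), which was -0.27 without scramble control 1. CtBP2 knockdown differed by 0.14 ± 0.17 (interval -0.28 to 0.56, adjusted p = 0.727), a sign that turned to -0.02 when the arrays were quantile normalized again.

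Of the effectors, BAX, which moves from the cytosol into the mitochondrial membrane, read 4.46 and 4.84 on scramble, 5.0, 5.58 and 5.26 on the CtBP1-labelled arrays, and 5.55 and 5.33 on CtBP2 knockdown. Every knockdown array was above both controls, by as little as the step from 4.84 to 5.0, and the knockdown groups overlapped. The share of all genes with this order was not counted. The difference from scramble was 0.63 ± 0.22 for the CtBP1 label, or 1.55-fold, with an adjusted p of 0.734. For CtBP2 knockdown it was 0.79 ± 0.24, or 1.73-fold, with an adjusted p of 0.396. Without scramble control 1 the values were 0.44 and 0.60, and without scramble control 2 they were 0.82 (adjusted p = 0.0842) and 0.98 (adjusted p = 0.058). Between the knockdowns BAX differed by 0.16 ± 0.22 (interval -0.37 to 0.69), less than their spread. The group means were 5.44 ± 0.16 (SD, n = 2) for CtBP2 knockdown, 5.28 ± 0.29 (SD, n = 3) for the CtBP1 label and 4.65 ± 0.27 (SD, n = 2) for scramble.

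BAK1, the effector that sits in the outer membrane from the start, had the largest difference among the 10 members. It read 3.33 and 4.56 on scramble, 4.43, 4.42 and 4.91 on the CtBP1-labelled arrays, and 5.45 and 5.15 on CtBP2 knockdown. Both CtBP2 knockdown arrays were above all other arrays, while scramble control 1 differed from control 2 by -1.22 log2 units and the CtBP1 label overlapped them. The CtBP2 knockdown difference from scramble was 1.35 ± 0.41, a 2.55-fold higher signal, with a 95% interval of 0.35 to 2.36 and an adjusted p of 0.405. Its size moved with the control used, to 0.74 without scramble control 1 and 1.96 (adjusted p = 0.0146) without scramble control 2. The CtBP1 label differed by 0.64 ± 0.38 (adjusted p = 0.734), which was 0.03 without scramble control 1 and 1.25 (adjusted p = 0.0353) without scramble control 2. In the comparison that uses no control mean, the CtBP2 knockdown stood above the CtBP1 label by 0.71 ± 0.38 (interval -0.21 to 1.63, adjusted p = 0.785). The group means ran from 5.30 ± 0.22 (SD, n = 2) for CtBP2 knockdown over 4.59 ± 0.28 (SD, n = 3) for the CtBP1 label to 3.95 ± 0.87 (SD, n = 2) for scramble, and the last 2 did not differ beyond their spread. Over all alternatives the adjusted p of BAK1 lay between 0.0146 and 0.93 for CtBP2 knockdown and between 0.0353 and 1.00 for the CtBP1 label.

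**Figure D2:**
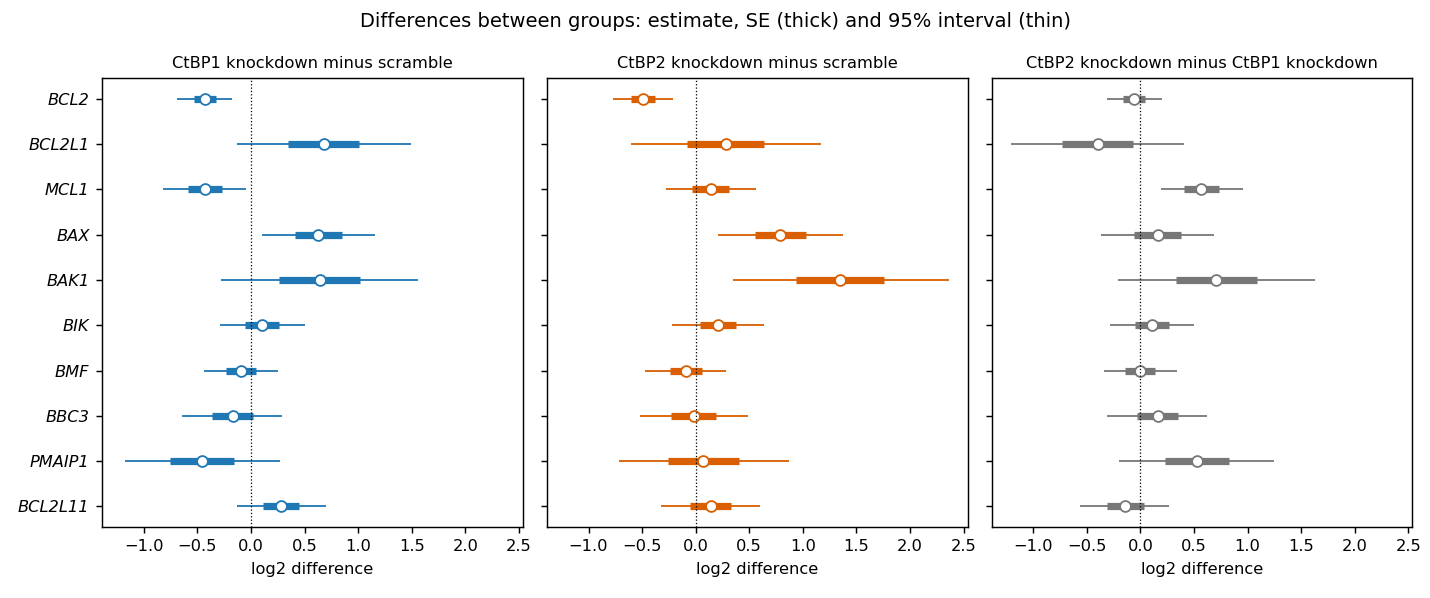
Log2 difference (horizontal axis) of each member in the 3 comparisons, with the standard error of the limma fit as a thick bar and the 95% interval, not adjusted for the number of genes, as a thin bar. BCL2 and BAX have intervals on one side of 0 against scramble in both panels, as do MCL1 for the CtBP1 label and BAK1 for the CtBP2 knockdown, and MCL1 does between the knockdowns. None passed after adjustment over all genes.

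Promoters bear on these genes because CtBP acts there through DNA-binding partners such as ZEB factors, which bind CAGGTG, and Krüppel-like factors, which bind CACCC. The RefSeq promoter entries used here (GRCh38.p14) held a start site for 8 of the 10 members and none for BIK or MCL1. The 250 bases before each start were searched on both strands for these motifs and for CACGTG, the E-box of MYC-type factors. That last motif was added after the BAX sequence had been seen. Shown are both effectors and, of the reported CtBP targets, BMF (its first listed start) and PMAIP1, with motif matches in capitals.

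BAX, chr19:48954625-48954874, plus strand: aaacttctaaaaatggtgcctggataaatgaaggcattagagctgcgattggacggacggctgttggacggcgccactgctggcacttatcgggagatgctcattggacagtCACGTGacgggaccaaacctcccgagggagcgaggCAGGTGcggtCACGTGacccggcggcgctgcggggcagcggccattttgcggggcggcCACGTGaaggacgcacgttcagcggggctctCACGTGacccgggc
BAK1, chr6:33580277-33580526, minus strand: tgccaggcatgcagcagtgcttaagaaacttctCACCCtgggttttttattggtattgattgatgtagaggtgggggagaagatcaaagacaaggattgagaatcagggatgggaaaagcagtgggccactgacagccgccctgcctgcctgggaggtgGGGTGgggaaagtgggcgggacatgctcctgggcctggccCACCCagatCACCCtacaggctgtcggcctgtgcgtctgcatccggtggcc
BMF, chr15:40108880-40109129, minus strand: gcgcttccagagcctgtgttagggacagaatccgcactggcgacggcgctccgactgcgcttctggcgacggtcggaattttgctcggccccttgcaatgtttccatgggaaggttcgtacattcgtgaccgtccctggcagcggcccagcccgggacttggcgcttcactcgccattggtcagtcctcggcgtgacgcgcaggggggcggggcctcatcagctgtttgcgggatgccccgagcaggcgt
PMAIP1, chr18:59899746-59899995, plus strand: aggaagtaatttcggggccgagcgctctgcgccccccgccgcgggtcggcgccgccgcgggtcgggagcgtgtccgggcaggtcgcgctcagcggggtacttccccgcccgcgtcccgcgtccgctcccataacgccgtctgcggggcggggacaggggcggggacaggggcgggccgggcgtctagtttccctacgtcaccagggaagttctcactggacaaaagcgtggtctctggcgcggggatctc

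BAX held 4 CACGTG matches and 1 CAGGTG match. CACGTG occurs at least once in 6.34% of the 35116 promoter entries, and 4 or more times in 0.0142%. Because CACGTG was added after the BAX sequence had been seen, these shares describe the motif and test nothing about BAX. BAK1 held 4 CACCC matches, which 2.91% of entries reach, and 54.7% of entries hold at least 1. The BMF and PMAIP1 windows shown held none of the 3 motifs. A second BMF start held 2 CAGGTG matches, a motif found in 17.5% of entries. Among the other members BCL2 held 3 CACCC matches, BBC3 held 1 CACCC and 1 CACGTG, BCL2L1 held 2 CACCC at 1 of its 2 starts, and BCL2L11 held none. Matches describe letters in these windows and do not show binding.

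Of the BH3-only genes reported as repressed by CtBP, BIK encodes a protein that resides mainly at the endoplasmic reticulum. BIK read 2.72 and 2.25 on scramble, 2.63, 2.53 and 2.61 on the CtBP1-labelled arrays, and 2.72 and 2.67 on CtBP2 knockdown. All 5 knockdown arrays lay between the controls or level with the higher one. The differences from scramble were 0.10 ± 0.16 (95% interval -0.29 to 0.50, adjusted p = 0.842) and 0.21 ± 0.17 (-0.22 to 0.64, adjusted p = 0.605). They were 0.34 and 0.44 without scramble control 1 and -0.13 and -0.02 without scramble control 2. The order of the means was CtBP2 knockdown, CtBP1 label, scramble, with steps smaller than the distance between the controls. Between the knockdowns BIK differed by 0.11 ± 0.16 (interval -0.28 to 0.50).

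BMF, which is held on the cytoskeleton through a dynein light chain until it is released, read 2.82 and 2.44 on scramble and was nearly the same on every knockdown array. It read 2.53, 2.54 and 2.54 on the CtBP1-labelled arrays, and 2.54 and 2.54 on CtBP2 knockdown. The values of array 3 with the CtBP1 label and of both CtBP2 knockdown arrays were identical to the last deposited digit, which makes the spread within groups look small. The difference from scramble was -0.09 ± 0.14 (interval -0.44 to 0.25, adjusted p = 0.84) and -0.09 ± 0.15 (-0.47 to 0.28, adjusted p = 0.797), and both signs turned without scramble control 1 (0.10 in each) and when the arrays were quantile normalized again (0.01 and 0.07). Between the knockdowns the difference was 0.00 ± 0.14 (interval -0.34 to 0.34), and -0.02 after median centring.

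PMAIP1, which encodes NOXA, a partner chiefly of MCL1, read 5.77 and 6.39 on scramble, 5.89, 5.13 and 5.85 on the CtBP1-labelled arrays, and 6.09 and 6.21 on CtBP2 knockdown. The CtBP1-labelled arrays were below both CtBP2 knockdown arrays, with array 2 well below its own group, and both groups overlapped scramble. The CtBP1 label differed from scramble by -0.46 ± 0.30 (interval -1.18 to 0.27, adjusted p = 0.734) and CtBP2 knockdown by 0.07 ± 0.33 (-0.72 to 0.87, adjusted p = 0.933). The first value was -0.77 without scramble control 1, -0.14 without scramble control 2 and -0.21 without array 2 of the CtBP1 label. The second value was -0.24 without scramble control 1 and -0.15 after renewed quantile normalization. Between the knockdowns the difference was 0.53 ± 0.30 (interval -0.20 to 1.25, adjusted p = 0.811), which was 0.28 without array 2 of the CtBP1 label.

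The remaining BH3-only genes were BBC3 and BCL2L11. BBC3, which encodes PUMA, a BH3-only protein that binds all the guardians, read 2.80 and 2.42 on scramble, 2.68, 2.42 and 2.20 on the CtBP1-labelled arrays, and 2.57 and 2.60 on CtBP2 knockdown. All 3 groups overlapped, with differences from scramble of -0.17 ± 0.19 (interval -0.64 to 0.29) and -0.02 ± 0.21 (-0.52 to 0.49), both of which turned sign without scramble control 1 (0.01 and 0.17), and the second also after renewed quantile normalization (0.14). BCL2L11, which encodes BIM, a direct activator of BAX and BAK1, read 2.57 and 3.05 on scramble, 3.10, 2.98 and 3.20 on the CtBP1-labelled arrays, and 2.92 and 2.98 on CtBP2 knockdown. It overlapped in all comparisons, with differences of 0.28 ± 0.17 (interval -0.13 to 0.70) and 0.14 ± 0.19 (-0.32 to 0.60). Without scramble control 1 these were 0.05 and -0.10. Between the knockdowns BBC3 differed by 0.16 ± 0.19 (interval -0.31 to 0.62) and BCL2L11 by -0.14 ± 0.17 (-0.56 to 0.27). The adjusted p for these 2 genes against scramble lay between 0.734 and 0.975.

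The position of scramble control 1 differed between dim and bright members. It gave the highest signal of all arrays for BCL2, BMF, BBC3 and also BIK, where CtBP2 knockdown array 1 came next and also rounds to 2.72. These 4 genes lie in the second dimmest quartile. It gave the lowest signal for BCL2L1, BAX, BAK1 and BCL2L11, of which the first 3 lie above the median level and BCL2L11 below it. Against the mean of the other 6 arrays its log2 difference was 0.43 for BCL2 and -1.49 for BAK1, where the median genes of their quartiles had 0.11 and -0.36. For MCL1, in the brightest quartile, it was 0.37, against a median of -0.65 in that quartile. Its part in the differences from scramble is shown by the values without it given above. In all, 5 of the 10 members (BCL2L1, MCL1, BAX, BAK1 and PMAIP1) had a mean above the median level of all genes, and all 10 were above the lower quartile of 2.12.

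**Figure D3:**
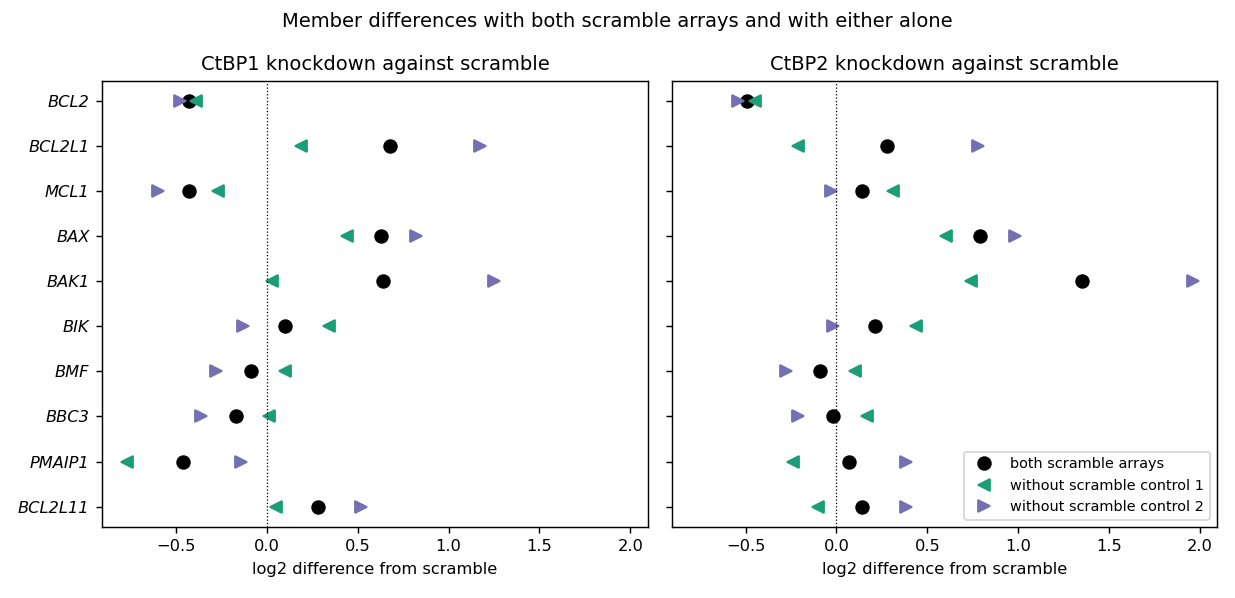
Log2 difference from scramble (horizontal axis) of each member with both scramble arrays (circles), without scramble control 1 (left-pointing triangles) and without scramble control 2 (right-pointing triangles). BCL2, BAX and BAK1 stay on one side of 0 in both panels, BAK1 by as little as 0.03 for the CtBP1 label. BIK, BMF and BBC3 change sign with the control in both.

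The genes with patterns most like each member were found by Pearson's r over the 7 log2 signals as a description of these arrays. For BCL2 they were GABARAPL3 (r = 0.971) and ZFPM2 (r = 0.968), a GATA cofactor that read 3.45 and 3.15 on scramble and 1.86 to 2.16 on the knockdown arrays. For BCL2L1 they were the lysosomal membrane protein gene LAMP1 (r = 0.99) and TMEM177 (r = 0.989), and for MCL1 RLF (r = 0.977) and RAB5IF (r = 0.965). BAX was most like DCAF4 (r = 0.977) and NUDT4 (r = 0.969), and BAK1 most like the glycolytic aldolase gene ALDOA (r = 0.995) and the mitochondrial carrier SLC25A39 (r = 0.994). The nearest patterns to BIK were STK32B (r = 0.975) and BEGAIN (r = 0.965), those to BBC3 were NECAB2 (r = 0.975) and NPBWR1 (r = 0.96), and those to BCL2L11 were STK40 and SRRM1 (r = 0.992 for each). PMAIP1 was most like SEC22C (r = 0.996) and TMEM87B (r = 0.985). BMF matched KCNQ5 and GAS7 at an r that rounds to 1.00, and KCNQ5 read 1.74 on all 5 knockdown arrays. Without scramble control 1 these 20 correlations lay between 0.933 and 0.996. The genes were picked for their r on all 7 arrays, so this range is not a separate check of the likeness.

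Among the 13 other genes of the family that were measured, 0 passed the test in any comparison. The smallest p among them in both comparisons with the CtBP2 knockdown was that of BNIP3, a hypoxia-induced mitophagy receptor, which read 7.08 and 7.21 on scramble, 7.08, 6.98 and 6.73 on the CtBP1-labelled arrays, and 8.24 and 8.46 on CtBP2 knockdown. Both CtBP2 knockdown arrays were above all others. Its difference was 1.20 ± 0.17 from scramble (adjusted p = 0.18) and 1.42 ± 0.15 from the CtBP1 label (adjusted p = 0.129, and 0.0164 to 1.00 over all alternatives), and without scramble control 2 the first was 1.27 with an adjusted p of 0.0178. Its relative BNIP3L differed from the CtBP1 label by -0.49 ± 0.25, which was -0.16 without CtBP2 knockdown array 1 and -0.83 without array 2.

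HRK, a BH3-only gene best known in neurons, read 5.74 and 5.01 on scramble, 4.63, 4.68 and 4.25 on the CtBP1-labelled arrays, and 4.65 and 4.49 on CtBP2 knockdown. Its differences from scramble were -0.86 ± 0.25 (adjusted p = 0.734) and -0.81 ± 0.28 (adjusted p = 0.438), or -0.49 and -0.44 without scramble control 1, and -1.22 (adjusted p = 0.0257) and -1.17 (adjusted p = 0.0262) without scramble control 2. BCL2L12 differed by 0.27 ± 0.12 and 0.55 ± 0.13 from scramble and by 0.28 ± 0.12 between the knockdowns, with groups that did not overlap in any of the 3 comparisons. The effector-like BOK differed from scramble by 0.46 ± 0.23 and 0.57 ± 0.25, which were 0.14 and 0.25 without scramble control 1 and 0.78 and 0.89 (adjusted p = 0.0562 and 0.0429) without scramble control 2. The second was also 0.37 without CtBP2 knockdown array 1 and 0.35 after renewed quantile normalization. BAD, a BH3-only gene under survival-kinase control, differed by 0.27 ± 0.16 for the CtBP1 label and by -0.38 ± 0.16 between the CtBP2 knockdown and that label. The first was 0.17 without array 3 of the CtBP1 label and with the replicate number as a block, and the second -0.21 without CtBP2 knockdown array 2. Groups did not overlap for 4, 5 and 4 of the 13 genes in the comparisons of the CtBP1 label with scramble, of CtBP2 knockdown with scramble and of the knockdowns, against 14.4%, 41.0% and 32.0% of all genes, and the medians were -0.04, -0.04 and -0.01.

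Downstream of the pores, 9 of 11 listed genes had a transcript cluster of their own; HTRA2 and ENDOG are read by clusters assigned to several genes and were not named. None passed the test, and groups did not overlap for 0, 1 and 2 of the 9 in the same order of comparisons, against the same shares of all genes. CYCS, the cytochrome c gene whose product leaves the mitochondria and starts caspase activation, read 3.30 and 4.39 on scramble, 3.51, 4.17 and 3.65 on the CtBP1-labelled arrays, and 4.65 and 5.02 on CtBP2 knockdown, which was the highest group without overlap. It differed from scramble by 0.98 ± 0.40 (adjusted p = 0.49), or 0.44 without scramble control 1 and 1.53 (adjusted p = 0.0342) without scramble control 2, and from the CtBP1 label by 1.05 ± 0.37 (adjusted p = 0.551). Near-identical processed copies of CYCS exist, so its signal may mix several loci. The channel gene VDAC3 differed by 0.48 ± 0.34 from scramble and 0.77 ± 0.31 from the CtBP1 label, and VDAC1 by 0.28 ± 0.19 and 0.36 ± 0.21 from scramble for the CtBP1 label and CtBP2 knockdown. Without scramble control 1 the differences from scramble were -0.01 for VDAC3 and 0.04 and 0.12 for VDAC1, and without scramble control 2 they were 0.96 for VDAC3 and 0.52 and 0.60 for VDAC1. The second VDAC1 value was 0.18 without CtBP2 knockdown array 2. After renewed quantile normalization they were 0.26 for VDAC3 and 0.18 and 0.13 for VDAC1. VDAC2, which holds BAK1 at the membrane, differed from scramble by -0.39 ± 0.37 for the CtBP1 label and between the knockdowns by 0.35 ± 0.37, and MTCH2, a docking protein for BID, by 0.22 ± 0.28 between the knockdowns. The VDAC2 values were -0.71 and 0.66 without array 1 of the CtBP1 label, -0.05 and 0.01 without its array 2, and -0.21 and 0.08 with the mean of the gene's clusters. The second was 0.13 after renewed quantile normalization. AIFM1 differed from scramble by 0.52 ± 0.38 and 0.53 ± 0.41, and DIABLO, an antagonist of caspase inhibitors, by 0.39 ± 0.27 for the CtBP1 label. These AIFM1 and DIABLO values turned to -0.13, -0.12 and -0.08 without scramble control 1. The medians of the 9 genes were 0.04, 0.36 and 0.13 in the same order of comparisons.

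**Figure D4:**
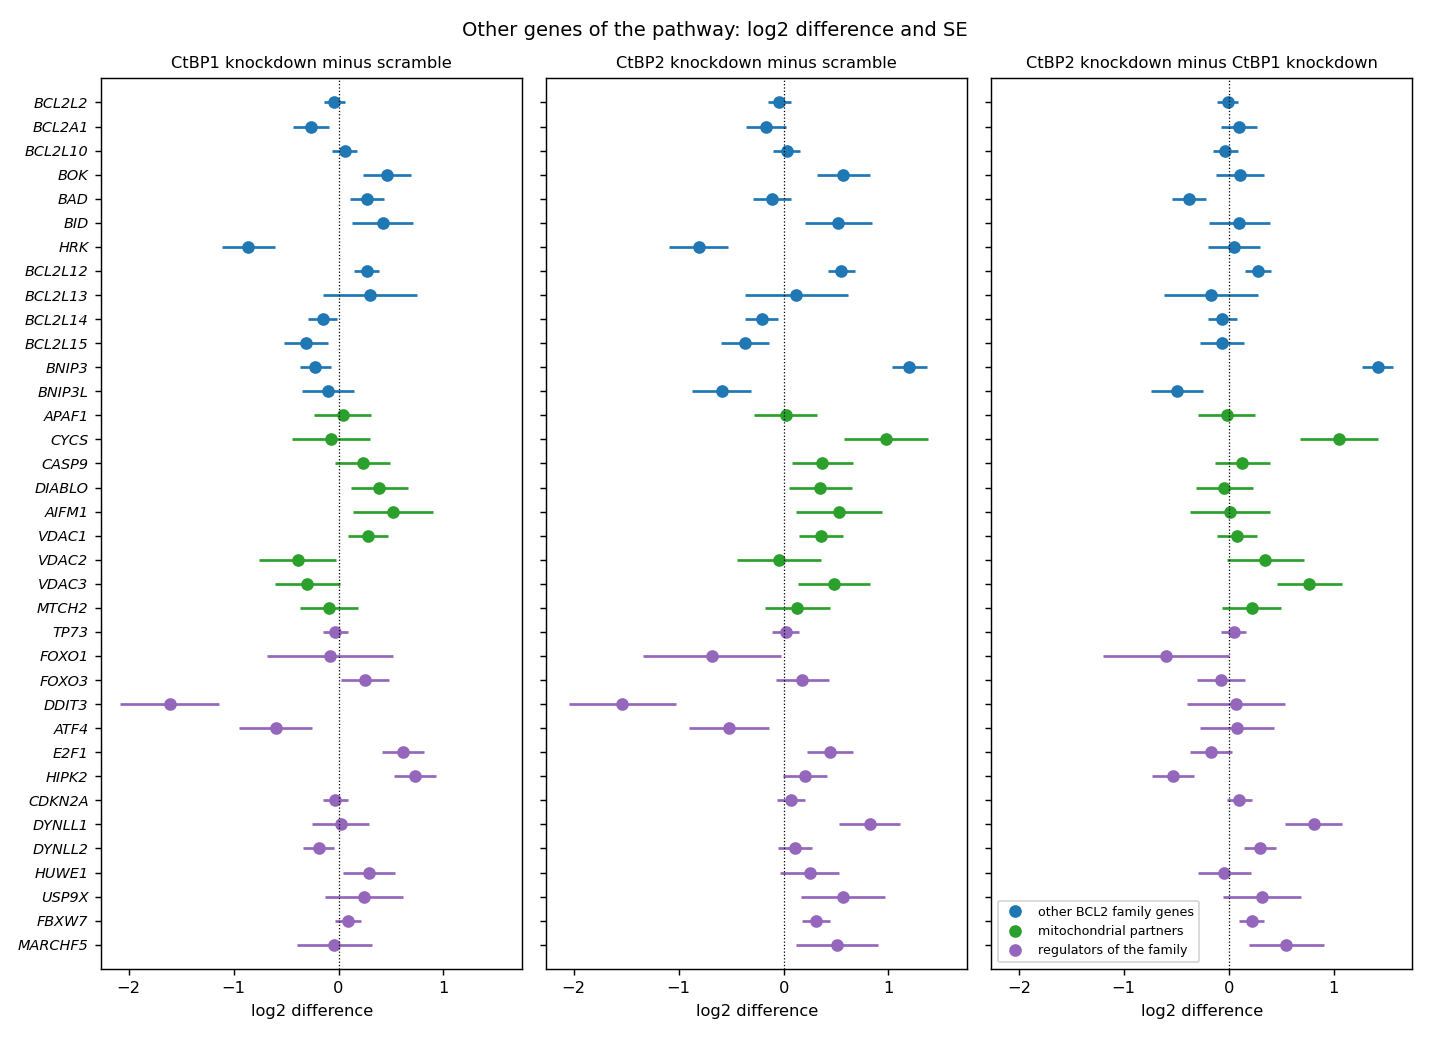
Log2 difference (horizontal axis) with its standard error for the other measured genes of the family, the mitochondrial partners and the regulators, in the 3 comparisons. BNIP3 is highest in both panels with the CtBP2 knockdown, and DDIT3 lowest in both panels against scramble; no gene shown passed the test.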

How the data were processed

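The values used are the log2 signals deposited by the authors, with a value for each transcript cluster on each array. The submitters' processing notes name Expression Console and RMA, a method that equalises probe distributions between arrays and summarises probes by median polish. Its version and genome build are not given in the sources used here. Of 33297 clusters, 19181 carry exactly 1 gene symbol in GEO's platform annotation, which gives several for 2055 and does not list 12061. For 17930 genes the current symbol was taken from RefSeq (GRCh38.p14) through the Entrez identifier, whether or not it had changed. For 895 genes with several clusters the brightest by mean was kept. This left 17958 genes, with no filter on dim ones. Titles gave the groups.

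Group means were fitted on all 7 arrays with limma 3.58.1 (R 4.3.3; lmFit, default eBayes). The 3 contrasts were tested two-sided, with Benjamini-Hochberg adjustment over all genes at 0.05. Values after ± are limma's standard errors except where SD is written. The fit was checked on simulated data. There it called 24% to 28% of the changes set at 1 log2 unit and 62% to 72% of those set at 2. The simulated noise was normal and independent, its spreads were shuffled across genes, and no array was compressed like scramble control 1. These shares therefore do not give the power on the real arrays. For the CtBP1 label against scramble, real differences ran from -3.06 to 2.94 and 0 genes were called. Arrays carry no read depth, so their number limits precision. Identical values on 2 or more arrays occurred for 40.0% of genes, BMF and BCL2L11 among them.

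The members, gene lists, tests and alternatives were chosen with earlier results of these data known. Besides the members, the text names the 4 genes with the smallest unadjusted p per list and comparison. It also names the 2 genes with the highest r per member. Y-linked symbols were passed over, as were those whose names mark a non-coding, placeholder, olfactory receptor or keratin-associated gene. Non-coding genes with other names could remain. Of the listed genes, 1 regulator and 1 marker were not analysed here. The alternatives covered scaling (quantile normalization done anew, median centring), the genes entered (dim ones, several clusters, tied values), the fit (variance trend, robust eBayes, array weights, only 2 groups, a block for the replicate number) and single arrays left out. Figures were drawn with matplotlib 3.10.9.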

Additional observations from a re-analysis of the deposited data

How the results depend on the processing

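Of 549 member values recomputed under alternatives, 526 kept their direction and their side of the threshold, and 18 changed sign on 12 of the 30 member results. The cause was not tested. The rest crossed the threshold only without scramble control 2, which leaves scramble control 1 as the lone control, assumed to vary like the other groups. Many alternatives could not change a member's difference. Each member had 1 cluster, so the cluster settings left it as it was. The filters on genes, the variance trend, robust eBayes and the fit of only 2 groups alter the spread or the adjustment alone. The count of 526 is therefore no measure of how robust the differences are. Leaving out each array in turn gave 0 to 3262 genes and 0 to 3 members past the threshold for the CtBP1 label against scramble, and 0 to 3952 genes and 0 to 2 members for CtBP2 knockdown against scramble. Without an array, 3 to 9 members had groups that do not overlap for the CtBP1 label against scramble (20.1% to 71.4% of all genes), 3 to 10 for CtBP2 knockdown against scramble (55.9% to 87.6%) and 4 to 7 between the knockdowns (7728 to 8983 of the 17958 genes). For CtBP2 knockdown against scramble the 1 gene called became 0 with renewed quantile normalization, every cluster as its own row, robust eBayes, only the groups compared, array weights and the replicate block, and renewed quantile normalization gave 6 non-overlapping members in place of 3, with 41.3% of all genes in place of 41.0%. Genes with an unadjusted p under 0.05 numbered 861 in the first comparison (254 with array weights to 6516 without scramble control 2), 1827 in the second (778 without CtBP2 knockdown array 1 to 7124 without scramble control 2) and 1395 between the knockdowns (671 without CtBP2 knockdown array 1 to 3141 with array weights). Between the knockdowns array weights called 272 genes, with 0 members among them. Renewed quantile normalization turned BMF to 0.01 (CtBP1 label against scramble) and 0.07 (CtBP2 knockdown against scramble), MCL1 to -0.02, BBC3 to 0.14 and PMAIP1 to -0.15 (all against scramble in the CtBP2 knockdown), and BCL2 to 0.01 between the knockdowns, where median centring turned BMF to -0.02. It also moved the split of genes under an unadjusted p of 0.05 between the knockdowns from 954 higher and 441 lower to 875 higher and 625 lower. Without each array in turn, differences of the CtBP1 label from scramble ran from -0.13 to 0.34 for BIK, -0.28 to 0.10 for BMF, -0.36 to 0.01 for BBC3, -0.08 to 0.85 for DIABLO, -0.13 to 1.18 for AIFM1 and -0.59 to 0.09 for CTBP1. Those of CtBP2 knockdown ran from -0.21 to 0.78 for BCL2L1, -0.03 to 0.31 for MCL1, -0.02 to 0.44 for BIK, -0.28 to 0.10 for BMF, -0.21 to 0.17 for BBC3, -0.24 to 0.38 for PMAIP1, -0.10 to 0.38 for BCL2L11, -0.01 to 0.96 for VDAC3 and -0.12 to 1.19 for AIFM1. Between the knockdowns they were 0.00 throughout for BMF and -0.03 to 0.38 for MTCH2, which was -0.03 with the replicate block. Same-numbered arrays' deviations from their group means correlated at -0.354 to 0.098, and the replicate block left 0 members past the threshold in each comparison. In groups of 2 arrays the deviations mirror each other. These few values therefore cannot show whether the replicate number pairs the arrays. With 2 or 3 arrays a group, the 95% intervals of the members' differences from scramble span 0.51 to 2.01 log2 units, which limits what could be detected.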

Other observations

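The genes that control the family, from transcription to protein turnover, were listed separately, and 14 of the 15 were measured. None of the 14 passed the test in any comparison; their groups did not overlap for 3, 6 and 4 genes against a background of 14.4%, 41.0% and 32.0% in the comparisons of the CtBP1-labelled arrays with scramble, of CtBP2 knockdown with scramble and of the knockdowns. DDIT3 (CHOP), a stress-induced factor that activates BH3-only genes and lowers BCL2, read 7.11 and 5.38 on scramble, 4.55, 4.66 and 4.71 on the CtBP1-labelled arrays, and 4.66 and 4.76 on CtBP2 knockdown. Its differences from scramble were -1.61 ± 0.47 (limma, adjusted p = 0.734) and -1.54 ± 0.51 (adjusted p = 0.433), and -0.74 and -0.67 without scramble control 1, the array with the highest DDIT3 signal. Without scramble control 2 they were -2.48 (adjusted p = 0.0066) and -2.41 (adjusted p = 0.00615). ATF4, its upstream activator, differed by -0.60 ± 0.35 for the CtBP1 label, and by -0.04 without scramble control 1, -1.16 (adjusted p = 0.0393) without scramble control 2 and -0.28 with the mean of its clusters.

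HIPK2, a kinase whose phosphorylation of CtBP leads to its degradation, read 6.02 and 6.41 on scramble, 6.81, 6.79 and 7.24 on the CtBP1-labelled arrays, and 6.41 on both CtBP2 knockdown arrays. The CtBP1-labelled arrays were above all others, by 0.73 ± 0.20 against scramble (adjusted p = 0.734, or 0.0447 without scramble control 2), and CtBP2 knockdown differed from them by -0.53 ± 0.20 (adjusted p = 0.583). E2F1, a cell-cycle factor that can induce BH3-only genes, was higher than both controls on all 5 knockdown arrays, a pattern not counted over all genes. Its differences from scramble were 0.61 ± 0.20 and 0.44 ± 0.22, the second being 0.19 after renewed quantile normalization. DYNLL1, a dynein light chain, differed in the CtBP2 knockdown by 0.82 ± 0.29 from scramble and 0.81 ± 0.27 from the CtBP1 label, or 0.49 and 0.38 with the mean of its clusters. DYNLL2, the light chain that holds BMF, differed by 0.30 ± 0.15 between the knockdowns, or 0.19 without CtBP2 knockdown array 1. FBXW7, which targets MCL1 protein for degradation, differed in the CtBP2 knockdown by 0.31 ± 0.13 from scramble and 0.22 ± 0.12 from the CtBP1 label.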
